A study of Mus musculus with 24 samples.

Results

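Potassium channel genes were taken as every protein-coding gene whose symbol begins with Kcn in the GENCODE annotation of mouse build mm10 (GRCm38). There were 94 such genes among 21938 protein-coding genes. Each gene was represented by its promoter, the 6000 bp window reaching 3000 bp to either side of the annotated 5′ end, and the mark read out over that window was H3K27me3. The symbols used no measured value, so the peaks at these promoters can be described against those at all promoters.

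Potassium channels let potassium leave the cell and so set the resting potential, end action potentials and limit how fast a neuron fires. The pore is assembled from voltage-gated (Kv), inward rectifier (Kir), two-pore leak or calcium-activated subunits, and accessory subunits alter gating and traffic. The Kcnf, Kcng, Kcns and Kcnv genes encode Kv subunits that form no working channel alone and modify the Kv2 channels they join. H3K27me3 is the repressive mark that the EZH2 methyltransferase of Polycomb repressive complex 2 writes and the KDM6 demethylases remove.

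The 24 libraries were H3K27me3 CUT&RUN of cerebellar granule neurons (CGNs), grown from granule neuron progenitors that were purified on Percoll from the cerebella of neonatal CD1-IGS mice (postnatal days 6 to 8). A time course held 3 biological replicates each at DIV1, DIV3, DIV5 and DIV7 (days in vitro). In the first compound experiment, 3 cultures received 5 µM GSK-126, an EZH2 inhibitor, and 3 received DMSO. In the second, 3 received 1 µM GSK-J4, a KDM6 inhibitor, and 3 received DMSO. Compounds were added on DIV1 and cells harvested on DIV5. All cultures were labelled as given 1 µM AraC, which stops dividing cells, on DIV2. The DIV1 harvest came before that day, so time in culture and AraC cannot be told apart between DIV1 and the later days. Purification leaves other cerebellar cells in such cultures, and the mark is averaged over all of them.

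Each library was represented by its own list of called broad peaks, with no read counts, so depth is unknown. A window without a peak was below the caller's threshold and was not shown to lack the mark. The lists held 4740 to 22832 peaks over 1.07 to 6.57 Mb. The GSK-126 lists were short, at 1.07 to 2.00 Mb, against 3.29 to 4.23 Mb in their DMSO libraries, and in the time course replicate 1 was short at DIV1 and DIV3, and replicates 1 and 2 at DIV7. GSK-126 replicate 3 stood apart, with a peak at 3285 promoters from only 7839 peaks. As a check of the label, 3 of 10 promoters of granule neuron markers had a peak in any library, Neurod1 in 5 libraries, Cbln1 in 4 and Zic2 in 1, and 7 (among them Pax6, Zic1 and Gabra6) had none. Of 9 markers of other cerebellar lineages, Sox10 had a peak in 11 libraries, Calb1 in 10 and Cx3cr1 in 2, and the other 6 had none. Among all promoters 62.0% had none, near the share in both lists, so the check did not separate granule neurons from the other lineages. No RNA was measured here, so these counts say nothing about how many cells of each type were present.

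The sequences on which the main patterns rest were read from the reference and are printed 5′ to 3′ along the gene's strand on GRCm38, in lower case with each CG dinucleotide in capitals. CG was chosen because Polycomb marking in mammals is known to favour CpG-rich DNA, and the motif reads the same on both strands and overlaps no other motif searched. The RefSeq promoter table (250 bases before to 50 bases after a start) matched 69 of the 94 genes, and the median of its 32851 entries held 7 CG. The first set is Kcne3, because its marked stretch lay away from its annotated 5′ end. The first Kcne3 promoter (chr7:100176420-100176719, plus strand) had 4 CG, a number reached by 68.6% of all entries, and lay under a peak in 0 of 24 libraries. The second (chr7:100178433-100178732, plus strand), 2181 bp inside the gene, had 12 CG, reached by 39.6% of entries, and met a peak in 22 libraries. The last line is the intronic stretch most often inside a peak, chr7:100179044-100179160, covered in at least 21 libraries.
Kcne3 first promoter: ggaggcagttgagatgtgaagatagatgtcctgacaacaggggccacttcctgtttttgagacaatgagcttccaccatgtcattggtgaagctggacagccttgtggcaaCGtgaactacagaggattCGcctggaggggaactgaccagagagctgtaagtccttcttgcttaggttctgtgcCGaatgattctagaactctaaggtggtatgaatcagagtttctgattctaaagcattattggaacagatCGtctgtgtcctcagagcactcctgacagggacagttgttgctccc
Kcne3 second promoter: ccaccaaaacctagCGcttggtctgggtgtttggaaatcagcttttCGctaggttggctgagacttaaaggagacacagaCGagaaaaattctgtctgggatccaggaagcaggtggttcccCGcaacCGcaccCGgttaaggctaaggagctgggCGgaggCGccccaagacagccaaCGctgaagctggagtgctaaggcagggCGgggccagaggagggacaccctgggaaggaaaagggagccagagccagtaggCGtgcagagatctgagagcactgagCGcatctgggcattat
Kcne3 most covered stretch: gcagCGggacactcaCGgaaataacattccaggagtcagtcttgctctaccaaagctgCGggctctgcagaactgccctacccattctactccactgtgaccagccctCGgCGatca

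The second set is Kcns3, the channel promoter with the widest difference between GSK-126 and DMSO cultures. Its inner promoter (chr12:11150324-11150623, minus strand) held 32 CG, a number reached by 9.52% of RefSeq entries, and met a peak in 15 libraries. Its most covered stretch was further in, in an intron at chr12:11149401-11149629.
Kcns3 inner promoter: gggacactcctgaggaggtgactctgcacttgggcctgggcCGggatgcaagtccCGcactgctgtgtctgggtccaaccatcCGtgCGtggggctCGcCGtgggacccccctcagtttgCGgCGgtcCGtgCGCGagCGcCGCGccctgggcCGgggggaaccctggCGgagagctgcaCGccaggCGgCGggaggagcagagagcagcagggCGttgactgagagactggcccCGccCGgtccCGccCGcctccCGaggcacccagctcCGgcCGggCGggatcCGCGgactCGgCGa
Kcns3 most covered stretch: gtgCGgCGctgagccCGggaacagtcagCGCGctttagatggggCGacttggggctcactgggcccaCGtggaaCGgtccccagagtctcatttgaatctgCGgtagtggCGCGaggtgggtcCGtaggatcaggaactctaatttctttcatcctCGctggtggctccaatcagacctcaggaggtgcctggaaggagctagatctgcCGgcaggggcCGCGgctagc

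The third set sets a marked stretch beside an unmarked promoter. Kcnj8 was most often covered inside its coding exon, at chr6:142570156-142570357 on the minus strand. The Kcnd2 promoter (chr6:21215096-21215395, plus strand) held 26 CG, reached by 16.9% of entries, and met a peak in 0 of 24 libraries.
Kcnj8 most covered stretch: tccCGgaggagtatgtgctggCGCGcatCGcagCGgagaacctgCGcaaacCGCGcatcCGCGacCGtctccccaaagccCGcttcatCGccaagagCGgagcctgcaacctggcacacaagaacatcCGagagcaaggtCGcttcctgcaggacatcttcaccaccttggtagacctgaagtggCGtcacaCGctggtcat
Kcnd2 promoter: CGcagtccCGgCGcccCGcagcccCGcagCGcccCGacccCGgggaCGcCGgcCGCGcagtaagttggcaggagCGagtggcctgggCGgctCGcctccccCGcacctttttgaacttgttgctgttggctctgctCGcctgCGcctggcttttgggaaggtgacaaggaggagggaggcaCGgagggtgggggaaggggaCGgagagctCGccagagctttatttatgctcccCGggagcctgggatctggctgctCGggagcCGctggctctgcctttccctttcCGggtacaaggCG
The Kcnj8 stretch is not a promoter. Among the promoters printed here, a CG-rich one occurred both with a called peak (Kcns3 inner promoter, 32 CG, 15 libraries) and without (Kcnd2).

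H3K27me3 peaks were found at potassium channel promoters more often than at promoters in general. In a given library 15.96% to 52.1% of the 94 promoters met a peak (median 29.3%), against 6.14% to 17.5% of all 21938 (median 9.97%). The share was higher for the channel genes in each of the 24 libraries, by 1.49 times in GSK-126 replicate 3 to 3.74 times in DIV3 replicate 1. These windows are 0.428% of all promoter windows but held 0.969% to 1.70% of the promoter sequence under peaks. Of the 94 promoters, 70 met a peak in at least 1 library and 24 (25.5%) in none, against 62.0% with none among all promoters. The share among all promoters is a description, since genes of a family share sequence and base composition and are not independent.

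**Figure D1:**
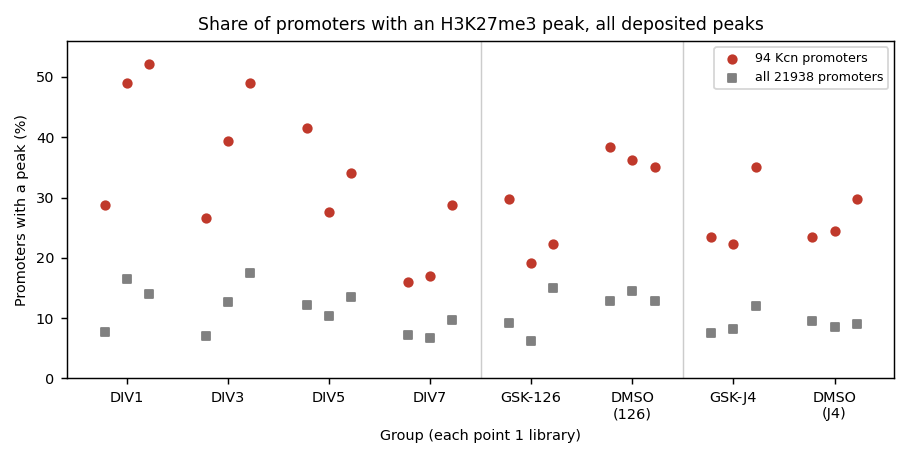
Percentage of promoter windows with at least 1 H3K27me3 peak (y axis) in each library (points, 3 per group on the x axis), for the 94 Kcn promoters (red circles) and all 21938 promoters (grey squares), using all deposited peaks. The channel genes lie above all promoters in every library, between 15.96% and 52.1%.

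Marking was concentrated in a small set. 14 promoters (14.9%) met a peak in 22 or more of the 24 libraries, against 684 of all promoters (3.12%). Kcnc2, Kcne3 and Kcnk5 had a peak in all 24 libraries. Kcnf1, Kcng1, Kcnh4, Kcnj5, Kcnj8, Kcnk6 and Kcnn1 had one in 23, and Kcng2, Kcnq1, Kcns3 and Kcnv1 in 22. Just under that limit, Kcnk13 and Kcnj10 had a peak in 19. The peaks were weak as well as recurrent, with a median best fold enrichment of 2.93 (Kcnq1) to 4.40 (Kcnv1) over the caller's local background among the 14. Kcnv1 had the highest single fold, 5.47, and Kcnk5 the longest peaks, with a median longest peak of 1068 bp.

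**Figure D2:**
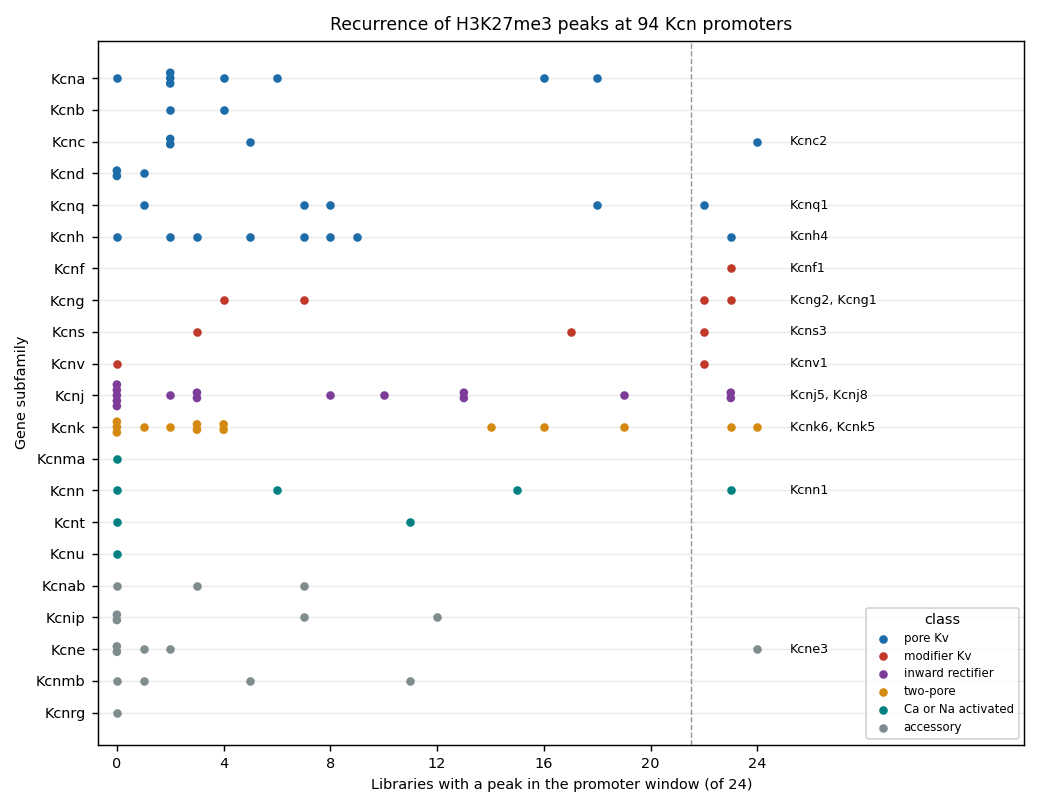
Number of the 24 libraries with an H3K27me3 peak in the promoter window (x axis) for each of the 94 Kcn genes (points, coloured by channel class), by subfamily (rows), with the limit of 22 libraries as a dashed line. Kcnc2, Kcne3 and Kcnk5 reach 24, and 14 genes reach 22 or more.

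The class that stood out was the modifier Kv subunits. Of its 10 genes, 9 met a peak in some library and 5 (Kcnf1, Kcng1, Kcng2, Kcns3 and Kcnv1) in 22 or more, with a median of 19.5 libraries. On average 7.04% of a modifier window lay under peaks, against 2.26% of a pore-forming Kv window. The 30 pore-forming Kv genes, which carry the delayed rectifier, A-type and M-type currents, had a median of 4 libraries. Only Kcnc2 (Kv3.2, a subunit of fast-spiking delayed rectifiers), Kcnh4 (an ELK channel) and Kcnq1 (the cardiac and epithelial Kv7.1 channel) of these reached 22. These are counts over few genes and were not tested.

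The other classes had fewer recurrent members. Among 15 inward rectifiers the median was 3 libraries, with Kcnj8 (the vascular ATP-sensitive pore subunit Kir6.1) and Kcnj5 (the cardiac G-protein-gated subunit Kir3.4) in 23 and Kcnj10 (the glial Kir4.1) in 19. Among 14 two-pore leak channels the median was 3.5, with Kcnk5 (TASK-2) in 24 and Kcnk6 (TWIK-2) in 23. Among 8 calcium- or sodium-activated channels it was 3, with Kcnn1 (the small-conductance channel SK1) in 23. Among 17 accessory subunits it was 1, and Kcne3, which modifies Kcnq1 and other Kv pores, was the only one of them to reach 22.

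Genes whose channels granule neurons are known to use were taken as a list. Of 18 such genes, 15 met a peak in some library, a larger share than the 38.0% of all promoters and the 74.5% of all Kcn promoters. A peak in 12 or more was found at 2, Kcnk9 (TASK-3, a standing leak channel of granule neurons) in 16 and Kcnip4 (a Kv4 accessory subunit) in 12. The range of 13 to 21 libraries held Kcnk9 alone of the 18, and 5.68% of all promoters. None of the 18 was in the range of 22 to 24, which held 3.12% of all promoters and 14.9% of all Kcn promoters. The median over the 18 was 2.5 libraries. These shares were not tested. Kcnd2 (the A-type subunit Kv4.2), Kcna1 (Kv1.1) and Kcnma1 (the BK channel pore) had none. Kcnh7 and Kcnq3 had a peak in 8, Kcna4 in 4, Kcnk3 and Kcnj6 in 3, Kcnc1, Kcna2 and Kcnj9 in 2, and Kcnk1 and Kcnd3 in 1.

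Partners of the channels that lie outside the family were also looked up. Of 17, 11 met a peak and 3 did so in 12 or more libraries, Dpp10 in 21, Lrrc38 in 19 and Dpp6 in 12. Of all promoters 38.0% met a peak, 5.68% in 13 to 21 libraries and 3.12% in 22 to 24. Dpp6 and Dpp10 encode accessory subunits of Kv4 and Lrrc38 an accessory subunit of BK channels. Others with a peak were Lrrc26 in 10, Abcc8 and Abcc9 in 9, Hcn2 in 6, Hcn4 in 5, Lrrc55 in 4 and Hcn3 in 2. Lrrc26, another BK accessory subunit, had 11.0%, 39.6% and 21.0% of its window covered at DIV1 and at most 6.83% in any other library, with all deposited peaks. With the time course lists limited to the same summed length, as described below, Lrrc26 was covered in too few libraries for a test.

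The annotated 5′ end missed marking at inner starts of some long genes. Kcnn2 (SK2) met a peak at its 5′ end in 6 libraries, but in 22 at a start 291 kb downstream. Coverage there was 0% to 10.1% in GSK-126 libraries and 8.98% to 20.2% in their DMSO libraries, and 0% to 10.4% at DIV7 and 6.72% to 27.7% at DIV1. Kcnk2 (TREK-1) and Kcnip3, both without a peak at the 5′ end, met one in 12 libraries at starts 58.9 kb and 39.6 kb away. Kcnma1 did so in 9 at a start 10.6 kb away. The counts above thus describe the window at the annotated 5′ end and not the whole gene.

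Peaks lay inside the genes rather than upstream. Of the covered bases of the 94 windows, 88.1% were downstream of the 5′ end and 54.3% in the first 1 kb. For the 14 recurrent promoters the downstream share was 91.2%, against 75.0% over the 684 promoters marked as often in the whole annotation. Kcnf1 was most often covered from 707 to 1270 bp downstream, within the coding sequence of its exon, Kcns3 from 1427 to 1655 bp and Kcne3 from 2542 to 2658 bp. In the 100 bp just upstream of the 5′ end, Kcnc2 had a peak in 13 libraries and Kcns3 and Kcnj5 in 11. The rest of the 14 had one there in 0 to 10. Peaks at Kcnj5 also lay further upstream, in 17 libraries at 400 to 500 bp.

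**Figure D3:**
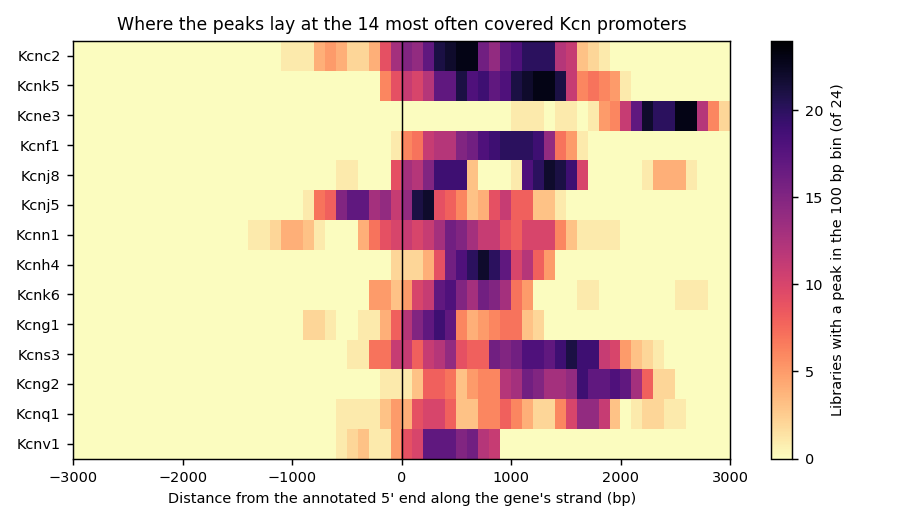
Number of libraries (colour, of 24) with a peak in each 100 bp bin from 3000 bp upstream to 3000 bp downstream of the annotated 5′ end (x axis, along the gene's strand) for the 14 Kcn promoters marked in 22 or more libraries (rows). Most of the signal is downstream, and Kcne3 is covered only from beyond 1000 bp.

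CpG content was counted in each window. The median Kcn window held 129 CG, against 108 over all promoters. Windows that met no peak had a median of 87 CG, and those with a peak in 1 to 3 libraries 144, in 4 to 12 libraries 139, in 13 to 21 libraries 117 and in 22 to 24 libraries 136. A peak in 22 or more libraries was found at 0 of 8 Kcn windows with 7 to 60 CG, 3 of 29 with 61 to 108, 6 of 21 with 109 to 152 and 5 of 36 with 153 to 462. The shares over all promoters in the same ranges were 0.163%, 2.83%, 5.65% and 3.88%. The numbers of Kcn windows are small and were not tested. 14 windows also held part of another gene, of the 14 recurrent ones only that of Kcnh4, which holds Hcrt, so a peak there belongs to either gene.

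Over days in culture, marked channel promoters were fewest at DIV7. A peak in all 3 libraries was found at 24 of 94 promoters at DIV1, 23 at DIV3, 21 at DIV5 and 7 at DIV7, which is 25.5%, 24.5%, 22.3% and 7.45%. The shares over all promoters were 6.27%, 6.17%, 7.24% and 3.77%. In at least 1 library the counts were 58, 50, 46 and 32, and the shares over all promoters 19.4%, 19.4%, 17.6% and 12.6%. Modifier windows were covered by 2.02% to 11.5% at DIV1, 4.20% to 13.4% at DIV3, 4.54% to 10.7% at DIV5 and 2.90% to 6.22% at DIV7 in the libraries of each day. The days overlapped, and the DIV7 lists were also short as a whole, at 1.19 to 2.25 Mb against 1.33 to 5.19 Mb at DIV1. In bulk cultures, fewer marked cells and less mark per cell cannot be told apart.

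**Figure D4:**
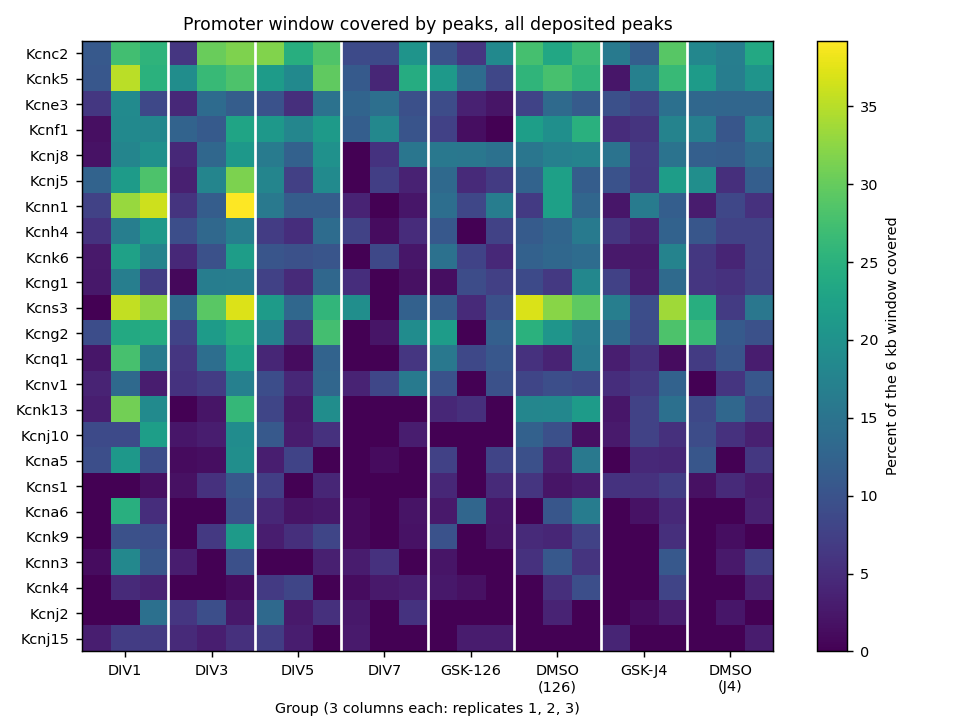
Percentage of the 6000 bp promoter window under H3K27me3 peaks (colour) for often marked Kcn genes (rows) in the 24 libraries (columns, by group), using all deposited peaks. Dark cells are low coverage, and the DIV7 and GSK-126 columns are darker than most DIV1 and DMSO columns of the GSK-126 experiment, as are the short lists of replicate 1 at DIV1 and DIV3.

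To compare groups at equal list length, each library was limited to its strongest peaks up to the length of the shortest list of its experiment, and the percentage of the window covered (coverage) was compared with limma over all promoters covered in at least 3 libraries. Changes are in percentage points of the window. At DIV7 against DIV1, 1 of 21 tested channel promoters was called, against 1% of the 1794 promoters tested. The means of 10 members were higher and of 11 lower at DIV7, with a median difference of −0.16 points, against 0.28 points over all promoters tested. With all deposited peaks 40 of 47 had a lower mean at DIV7, with a median of −5.08 points against −3.08 points over all tested. Of these members 0 were called, against 40 of the 3584 promoters tested. An unadjusted p under 0.05 (limma) was found for 10 members, all lower at DIV7. Over all promoters tested it was found for 658 lower and 49 higher at DIV7.

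The called gene was Kcne3. At equal length its coverage was 12.7%, 14.3% and 9.62% at DIV7, against 0% in all 3 DIV1 libraries. It was 4.58%, 13.7% and 11.6% at DIV3 and 0%, 3.38% and 0% at DIV5, so the values did not run in 1 direction over the days. The DIV7 over DIV1 difference was 12.2 points (SE 2.31, 95% interval 7.05 to 17.4, limma adjusted p = 0.0362, n = 3 each). The 0% values came from limiting the lists: with all deposited peaks the same window had 12.7%, 14.3% and 9.62% at DIV7, against 6.37%, 18.8% and 8.43% at DIV1. These overlapped and differed by 1.02 points (SE 3.74, adjusted p = 0.895). The call at equal length was also lost without any single DIV1 or DIV7 library (changes of 11.1 to 13.5 points over all libraries left out in turn) and without DIV5 replicate 2 or 3.

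Kcnf1 (Kv5.1) also depended on how much of each list was used. At equal length it was covered by 11.7%, 18.3% and 10.1% at DIV7, against 1.60%, 0% and 0% at DIV1, a difference of 12.8 points (SE 4.11) that missed the threshold (adjusted p = 0.194). All deposited peaks gave 1.60%, 18.6% and 18.1% at DIV1, which overlapped the DIV7 values, and a difference of 0.62 points (SE 4.73, adjusted p = 0.959). Kcnf1 at DIV1 thus rested on replicate 1, the short list, at equal length and on replicates 2 and 3 with all deposited peaks.

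Kcnc2 was covered by 6.75%, 8.82% and 13.2% at DIV7 and by 11.0%, 27.3% and 25.6% at DIV1 at equal length. Its ranges overlapped, and the difference of −11.7 points (SE 7.99) was not called (adjusted p = 0.592). Kcng1 (Kv6.1) had 5.07%, 0% and 0% at DIV7, against 2.60%, 0% and 0% at DIV1, and its difference of 0.82 points was small beside its SE of 2.25 (adjusted p = 0.912). With all deposited peaks the Kcng1 difference was −6.55 points and not called.

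**Figure D5:**
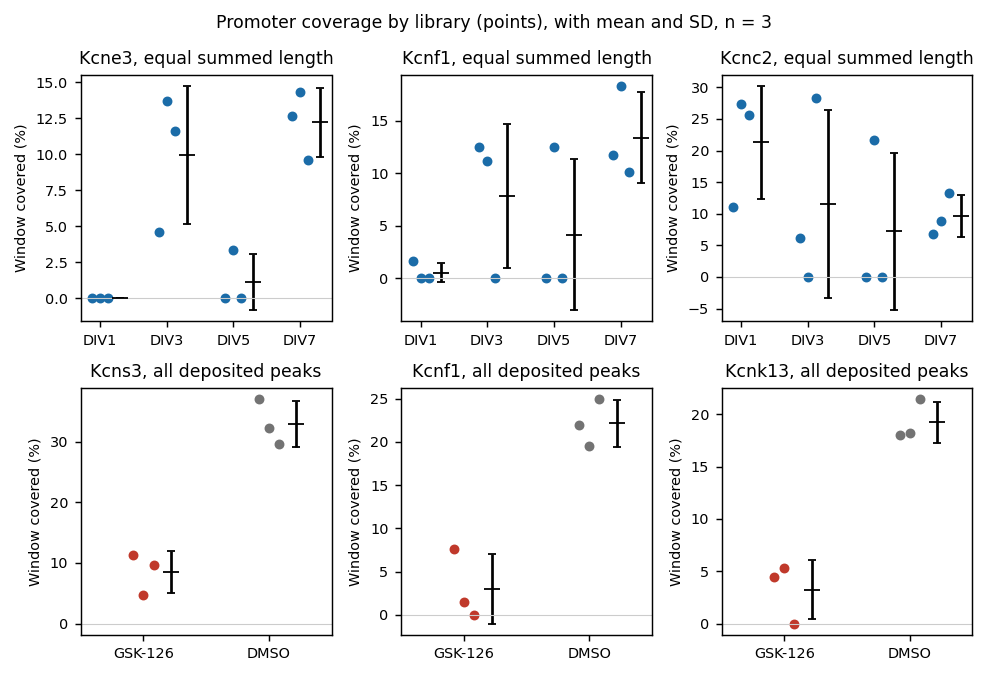
Coverage of the promoter window (percentage, y axis) in each library (points), with mean and SD (bars, n = 3). The upper row shows Kcne3, Kcnf1 and Kcnc2 over DIV at equal list length, where Kcne3 lies at 9.62% to 14.3% at DIV7 and 0% at DIV1, a gap that is not there with all deposited peaks. The lower row shows Kcns3, Kcnf1 and Kcnk13 with all deposited peaks, where the GSK-126 cultures lie below DMSO with no overlap.

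The other steps of the time course gave no called channel promoter. For DIV3 against DIV1 0 of 21 passed, against 0.334% of all tested, with 1 member at an unadjusted p under 0.05. For DIV5 against DIV3 it was 0, against 0% of all tested, with 1 member under 0.05. For DIV7 against DIV5 it was 0, against 0.334%, with 2 members under 0.05. For DIV7 against DIV3 it was 0, against 0.502%, with none under 0.05. The linear trend over DIV called 0, against 0.0557%, with 3 members under 0.05. All deposited peaks called 0 of 47 in each of these comparisons. Of the 3584 promoters tested, they called 8 for DIV3 against DIV1, 36 for the trend and 0 for the others. In that trend 15 members had an unadjusted p under 0.05 (limma), all falling over DIV. Over all promoters tested 789 were falling and 53 rising at that limit.

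Fewer channel promoters were marked in GSK-126 cultures. A peak in all 3 libraries was found at 12 of 94 promoters (12.8%) in GSK-126 cultures and 23 (24.5%) in DMSO cultures, with 3.72% and 8.63% of all promoters. In at least 1 library the counts were 31 with GSK-126 and 47 with DMSO, and the shares over all promoters 20.1% and 19.3%. Modifier windows were covered by 1.52% to 5.64% with GSK-126, against 9.04% to 11.0% with DMSO. The mean coverage of all promoters did not overlap either, at 0.324% to 0.666% with GSK-126 and 1.08% to 1.25% with DMSO. With all deposited peaks, 6 of 29 tested channel promoters (20.7%) were called lower, against 26.7% of the 2385 promoters tested, so the family was not called more often than promoters in general. 27 of the 29 had a lower mean with GSK-126, and the median difference was −4.42 points against −4.77 points over all promoters tested.

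The 6 were Kcns3, Kcnf1, Kcnk13, Kcnc2, Kcnk5 and Kcnn3. Kcns3 (Kv9.3) was covered by 11.4%, 4.70% and 9.65% with GSK-126, against 37.0%, 32.2% and 29.6% with DMSO. Even the highest GSK-126 library was far under the lowest DMSO library, and the difference was −24.4 points (SE 2.66, 95% interval −30.7 to −18.0, limma adjusted p = 0.00331). The most covered stretch printed above is 229 bp and only part of these covered bases. The median longest peak in the window was 951.5 bp.

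Kcnf1 had 7.55%, 1.43% and 0% with GSK-126, against 21.9%, 19.6% and 24.9% with DMSO, a difference of −19.2 points (SE 2.55, adjusted p = 0.00432). Kcnk13, the two-pore channel THIK-1, had 4.43%, 5.28% and 0% with GSK-126, against 18.0%, 18.2% and 21.5% with DMSO, a difference of −16.0 points (SE 2.06, adjusted p = 0.00404). Neither gene had overlapping groups. The calls of Kcns3, Kcnf1 and Kcnk13 held when each library was left out in turn and with the replicate number as a block.

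The other 3 calls were less stable. Kcnc2 had 9.88%, 6.23% and 18.6% with GSK-126, against 27.6%, 23.5% and 26.8% with DMSO (−14.4 points, SE 3.27, adjusted p = 0.0202), and its call was lost without GSK-126 replicate 2 or DMSO replicate 1. Kcnk5 had 21.2%, 13.9% and 8.42% with GSK-126, against 25.7%, 27.9% and 25.7% with DMSO (−11.9 points, SE 3.20, adjusted p = 0.0352), and lost it in 5 of 7 alternatives. Kcnn3 (SK3) had 2.27%, 0% and 0% with GSK-126, against 5.62%, 10.8% and 5.95% with DMSO (−6.71 points, SE 1.98, adjusted p = 0.0465), and lost it in 7 of 7. In none of these 3 genes did the groups overlap.

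Some recurrent promoters differed little. Kcnj8 was covered by 15.8%, 15.5% and 14.6% with GSK-126, against 15.4%, 17.1% and 17.6% with DMSO. The groups overlapped, and the difference was −1.43 points (SE 1.52, 95% interval −5.03 to 2.17, adjusted p = 0.515). Kcnn1 had 14.1%, 8.35% and 16.6% with GSK-126 and 6.68%, 22.3% and 12.98% with DMSO (−0.96 points, SE 4.19). Kcnq1 was covered by 15.7%, 8.50% and 10.6% with GSK-126 and 5.57%, 3.83% and 15.9% with DMSO (3.16 points, SE 3.60, adjusted p = 0.544). The contrast between these genes and Kcns3 was not itself tested.

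At equal list length the GSK-126 differences were not called. Of 11 channel promoters tested 0 passed, against 6.82% of 939 promoters in either direction, with 1 member at an unadjusted p under 0.05. The 64 calls behind that share were 0 without GSK-126 replicate 1, GSK-126 replicate 3 or DMSO replicate 2. The member was Kcnj5, covered by 0%, 4.60% and 3.93% with GSK-126 against 12.4%, 20.4% and 11.6% with DMSO. The difference of −12.0 points (SE 2.98, 95% interval −19.4 to −4.58) had an adjusted p of 0.0774, and with all deposited peaks it was −7.19 points (SE 3.60, adjusted p = 0.174). Kcne3 had the same values in both readings, 9.15%, 3.60% and 2.23% with GSK-126 against 7.95%, 13.6% and 11.2% with DMSO (−5.93 points), with overlapping groups, and was called in neither. Kcnf1 was covered by 0%, 1.43% and 0% with GSK-126 and 0% in each of the 3 DMSO libraries at equal length, too few libraries for a test. Kcns3 kept its direction at equal length with a wide error (−18.1 points, SE 9.56, adjusted p = 0.379), while Kcnc2, Kcng1 and Kcnk13 turned to small positive differences of 1.84, 0.54 and 1.32 points. The GSK-126 calls were thus found where the list lengths also differed, and the part of list length in them was not tested.

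Dpp10, the Kv4 partner, was also lower with GSK-126 when all deposited peaks were used. Its coverage was 3.33%, 2.10% and 0% with GSK-126, against 18.1%, 15.9% and 13.8% with DMSO (−14.1 points, SE 1.85, adjusted p = 0.00416). The groups did not overlap. At equal length the difference was −8.44 points (SE 3.18, adjusted p = 0.207).

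GSK-J4 changed no channel promoter past the threshold. A peak in all 3 libraries was found at 17 promoters with GSK-J4 and 17 with DMSO, and in at least 1 library at 36 with GSK-J4 and 35 with DMSO. For all 3 libraries the shares over all promoters were 5.09% with GSK-J4 and 5.49% with DMSO. For at least 1 library they were 14.2% with GSK-J4 and 12.96% with DMSO. At equal length 0 of 19 tested members were called, against 0% of 1524 promoters, and no member had an unadjusted p under 0.05. All deposited peaks gave 0 of 25, against 0 of 2034 promoters. Kcnn1 had the smallest p, at 8.31 points (SE 3.75, 95% interval −0.264 to 16.9, adjusted p = 0.975). Kcns3 was covered by 16.8%, 9.27% and 33.6% with GSK-J4 and 24.6%, 6.88% and 15.6% with DMSO over all deposited peaks, which overlapped (4.21 points, SE 6.70).

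The effects of the compounds were also compared directly, as the GSK-126 effect minus the GSK-J4 effect at equal length. 0 of 23 tested channel promoters passed, against 1.3% of 1766 promoters, with 1 member at an unadjusted p under 0.05 in each direction. These were Kcng2 (Kv6.2, 17.0 points, SE 6.46, adjusted p = 0.327) and Kcnj5 (−12.3 points, SE 5.52, adjusted p = 0.428). At Kcns3 the difference between the effects was −7.00 points with an interval of −30.3 to 16.3. The GSK-126 difference at Kcns3 was itself uncalled at equal length. Its call with all deposited peaks was not compared between the compounds, so whether that difference was particular to GSK-126 was not tested.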

How the data were processed

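H3K27me3 CUT&RUN was performed in 24 libraries of cultured CGNs (8 groups, 3 biological replicates each). Per the labels and the methods, the authors checked reads with FastQC, trimmed them with Trimmomatic 0.38, used STAR 2.7.2b for alignment to mm10 and MACS2 2.1 for broad peak calling, and bedtools 2.25.0 is also named. Each deposited list holds the peaks of 1 library called on its own. The deposited lists give a fold enrichment (a ratio to background estimated locally by the caller) and a −log10 p and −log10 q for each peak. The control of the calls is not given in the sources used here. DESeq2 1.36.0, the authors' test, needs read counts and was replaced, since peak lists hold none. Read depth is unknown, so no interval that needs it is given, and the number of libraries sets the precision.

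Promoter windows were the annotated 5′ end ± 3000 bp of 21938 protein-coding genes. Within an experiment each list was limited to its strongest peaks by −log10 p up to the shortest list's summed length (1.11 Mb over DIV, 1.07 Mb for GSK-126 and 1.40 Mb for GSK-J4), since longer lists cover more of every window. Such values are relative within an experiment. All deposited peaks were used for the descriptions and as the alternative. The percentage of the window covered entered limma 3.58.1 (R 4.3.3, robust eBayes after lmFit, two-sided) for promoters covered in at least 3 libraries, with Benjamini-Hochberg adjustment over all of them and a call at an adjusted p under 0.05. A joint fit held the 12 libraries of the time course, and separate fits the 6 libraries of each compound experiment. The step was tested on simulated data. Other steps used Python 3.11.15 and matplotlib 3.10.9. Sequences and their 32851 promoter entries came from RefSeq on GRCm38.

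The members, gene lists and tests were chosen with earlier results of these data known. Genes were named by rule: Kcnc2, Kcnf1, Kcng1 and Kcne3, members past the threshold, the 10 with a peak in the most libraries, up to 5 tested members in each direction for DIV7, GSK-126 and GSK-J4 with the smallest p, and members of the granule neuron and partner lists with a peak. Kcnn3, Kcnn2, Kcnk2, Kcnip3 and Kcnq1 fall outside it and were named after their values were seen. A few genes enter the counts but are not reported here by name. Alternatives were all deposited peaks, peaks of −log10 q 2 or more, lists ranked by fold in place of p, windows of 1000 bp to either side, promoters covered in at least 1 library, the replicate number as a block and each library left out.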

Additional observations from a re-analysis of the deposited data

How the results depend on the processing

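The peak lists limit these results more than the tests do, since most peaks were just past the caller's threshold. At −log10 q of at least 2, no Kcn promoter met a peak in all 3 libraries of any group except the DMSO cultures of the GSK-126 experiment, where 1 did. The time course fit at that limit tested 118 promoters, 1 of them a channel gene, against 1794 and 21 without the limit. With the limit lifted, 1 library was left out in turn and Kcn promoters with a peak in all remaining libraries of the group were counted. That count was 24 to 38 at DIV1 (38 without replicate 1), 8 to 13 at DIV7 (12 without replicate 1 and 13 without replicate 2) and 13 to 19 with GSK-126 (19 without replicate 2), and moved by less than 1.5 times in the other groups. These counts were taken for Kcn promoters alone, so no share over all promoters is given.

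The count of called Kcn promoters at DIV7 against DIV1 was 0 with all deposited peaks, peaks of −log10 q 2 or more, ranking by fold, 1 kb windows and without replicate 1 of every day (added after seeing the data), and 0 to 1 with each library left out. For DIV3 against DIV1 and for DIV7 against DIV5 it was 0 to 1 with each library left out, with Kcne3 called without DIV3 replicate 1. For GSK-126 it was 6 with all deposited peaks, and then 3 to 8 with each library left out, an alternative added after seeing the data. It was 8 of 27 without GSK-126 replicate 1, against 658 of the 2206 promoters tested. Without GSK-126 replicate 2 it was 3 of 29, against 312 of 2278, and without DMSO replicate 1 it was 3 of 24, against 333 of 1820. The other counts of calls, for DIV5 against DIV3, DIV7 against DIV3, the trend and GSK-J4, were 0 under each alternative.

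Differences that changed sign were all uncalled at equal length. With all deposited peaks, DIV7 minus DIV1 was −6.55 points at Kcng1, −10.4 at Kcnk5 and −12.3 at Kcns3, DIV3 minus DIV1 was −1.22 and DIV5 minus DIV3 0.017 at Kcne3, GSK-126 minus DMSO was −14.4 at Kcnc2, −5.16 at Kcng1, −0.317 at Kcnip4 and −16.0 at Kcnk13, and GSK-J4 minus DMSO was 1.54 at Kcng1. Ranking by fold enrichment gave 0.222 at Kcnc2 for DIV7 minus DIV1 and 1.53 at Kcne3 for GSK-J4 minus DMSO. Windows of 1 kb gave −2.40 at Kcng1 for DIV7 minus DIV1 and 1.82 at Kcnj8 for GSK-126 minus DMSO, and −log10 q of at least 2 gave 3.26 at Kcnj8. Leaving out libraries gave, for GSK-126 minus DMSO, −2.41 to 10.3 at Kcnc2, −0.703 to 2.05 at Kcng1 and −3.86 to 1.04 at Kcnv1, for DIV7 minus DIV1 −0.867 to 1.69 at Kcng1, and for GSK-J4 minus DMSO −1.87 to 4.91 at Kcng2 and −0.386 to 4.96 at Kcnv1. The cause was not tested.

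With the replicate block, the Kcne3 difference between DIV7 and DIV1 was 12.2 points (limma adjusted p = 0.0394), the counts of called Kcn promoters at equal length were those without it, and with all deposited peaks 5 Kcn promoters were called for GSK-126, Kcnn3 being lost. Over all promoters, calls at equal length with the block were 0 against 64 without it for GSK-126, 0 against 6 for DIV3 against DIV1, 3 against 6 for DIV7 against DIV5 and 4 against 9 for DIV7 against DIV3. Leaving out 1 library, the 64 were 0 to 22 (4 without GSK-126 replicate 2). The deviations from the group means of libraries with equal replicate numbers correlated by −0.0688 to 0.157 over DIV (1 of 18 pairs over 0.1). They correlated by −0.0585 to 0.0930 for GSK-126 and 0.0272 to 0.0335 for GSK-J4. For libraries with unequal numbers the ranges were −0.134 to 0.0658, −0.103 to 0.0627 and −0.0370 to 0.00271. These small values do not settle whether libraries with equal numbers were paired.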
